A study of Drosophila melanogaster with 30 samples.

Results

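The genes described here are the digestive enzyme genes of the fly gut, 47 genes picked by their symbols out of 14040 genes in the table of embryonic stage 16 (St16) and 14077 in the table of the later stage named for air filled trachea (AFT). They comprise 16 Jon genes, the 11 genes whose symbol ends in Try, 7 Lys genes, 3 Amy genes and 10 maltase genes with symbols starting Mal-A or Mal-B. The rule used symbols alone, but the family was taken up with earlier results of these data known. All 47 symbols were found in the BDGP6.54 annotation.

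RNA from whole embryos of Drosophila melanogaster was sequenced after transcription factors had been driven in neurons by elav-Gal4, a pan-neuronal driver that acts mainly after the last division. Every group, the control included, carried elav-Gal4 (Bl#458) in 1 copy. The col embryos had UAS-col-HA opposite the driver, the lbe embryos UAS-myc-lbe, and the col + lbe embryos both of these transgenes together. The ap + eya embryos had UAS-eya-HPC4 opposite the driver and 1 copy of UAS-Flag-Ap, and in the control embryos a chromosome of the OregonR stock (BDSC# 2376) stood in place of a transgene. Each of the 5 genotypes was collected at both stages in 3 biological replicates of more than 200 embryos, which makes 30 samples. The experiment number in the labels differs with the genotype, so experiment and genotype cannot be told apart.

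The larval midgut secretes proteases, lysozymes and carbohydrate-cleaving enzymes into its lumen, where they break down food before the products are absorbed. Many of these enzymes are encoded by clusters of short, closely related genes that lie side by side. Transcripts of digestive enzymes are typical of a gut that has differentiated and is about to feed, and hatching follows soon after the trachea fill with air.

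The deposited values are TPM, a share of all transcripts in a column after scaling by transcript length, which allows levels of different genes to be set side by side. Each value is the authors' mean for 1 genotype at 1 stage, which leaves no spread between replicates to compare a difference with, and no test, SD or p-value is given. "Higher" and "lower" describe these means. A fold change is a difference of log2(TPM + 1), a scale that understates differences of genes at low TPM, and a gene counts as apart at 2-fold or more. It entered a comparison at 1 TPM or more in either genotype. The 4 comparisons with the control at a stage use the same control mean and are not independent of each other. In RNA from whole embryos, more cells of a type and more RNA per cell cannot be told apart.

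The TPM columns held 9598 to 9871 genes at 1 TPM or more. The driven genes followed the labels at AFT. The col gene, listed as kn, was at 43.4 TPM in col and 104 TPM in col + lbe, against 12.4 TPM in control embryos, and lbe was at 48.9 TPM in lbe and 88.0 TPM in col + lbe, against 0.0488 TPM in control embryos. The ap + eya embryos had ap at 29.8 TPM and eya at 25.7 TPM, against 3.03 and 2.50 TPM in control embryos. In col + lbe embryos, where neither was driven, ap was at 31.9 TPM and eya at 23.8 TPM. Genes that mark gut epithelium were well detected at AFT, among them the junction genes mesh (92.9 to 169 TPM) and Tsp2A (185 to 293 TPM) over the 5 genotypes. Of 7 fat body genes, Lsp1alpha, Lsp1beta, Lsp2, Fbp1 and Fbp2 were at or below 0.274 TPM in all 10 columns and the larval serum protein gene Lsp1gamma was at 0.954 to 3.62 TPM. The lipid carrier gene apolpp, the exception, was at 94.6, 87.6, 70.8 and 78.3 TPM in col, lbe, col + lbe and ap + eya at AFT, against 47.8 TPM in control embryos, and its part in the results was not tested.

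At AFT the digestive enzyme genes were far more abundant than at St16 in each of the 5 genotypes. Their TPM summed to 12665 in col, to 9535 in lbe, to 16567 in col + lbe, to 11585 in ap + eya and to 4072 in control embryos at AFT, against 102, 91.1, 114, 100.2 and 110.0 TPM for the same genotypes at St16. The sum was therefore 125 times as high at AFT as at St16 in col, 105 times in lbe, 145 times in col + lbe, 116 times in ap + eya and 37.0 times in control embryos. Of the 44 genes that could be compared between the stages in control embryos, 41 were at least 2-fold higher at AFT, against 19% of all genes. The counts were 41 of 44 in col (19.1% of all genes), 40 of 44 in lbe (18.6%), 41 of 44 in col + lbe (20.6%) and 41 of 45 in ap + eya (18.3%). Of the genes compared, 29 reached 1 TPM at AFT alone in col, lbe, col + lbe and control embryos and 32 in ap + eya, so they had to differ, and these counts describe the genes that passed the limit. Among the genes at 1 TPM or more at both stages, 12 of 14 were at least 2-fold higher at AFT in col, 11 of 14 in lbe, 12 of 14 in col + lbe, 9 of 12 in ap + eya and 12 of 14 in control embryos. These levels come from tables that were made separately, and the St16 libraries were single reads of 50 bp and the AFT libraries paired reads of 150 bp, so stage and read layout cannot be told apart.

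LysX and the maltase gene Mal-B1 were the 2 genes at least 2-fold lower at AFT in each genotype, where 25.8% of all genes were lower in col, 26.9% of them in lbe, 20% in col + lbe, 28.5% in ap + eya and 24.8% in the control. LysX was at 0.340 TPM in col, 0.250 TPM in lbe, 0.381 TPM in col + lbe, 0.192 TPM in ap + eya and 0.273 TPM in control embryos at AFT. At St16 LysX was at 8.91, 2.95, 8.61 and 8.53 TPM in col, lbe, col + lbe and ap + eya, against 2.73 TPM in control embryos. LysX thus entered the comparison of the stages through St16 alone and had to come out lower at AFT. Mal-B1 was at 1.95 to 2.40 TPM over the 5 genotypes at AFT and at 8.05 to 15.3 TPM at St16. LysC, annotated as a pseudogene, was listed at 0 in all 10 columns.

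At St16 few of the digestive enzyme genes were detected, and few differed between genotypes. A level of 1 TPM in any genotype was reached by 20 of 47 genes, and none stood among the 500 most abundant genes of a column. Against the control, 2 of 18 genes compared were at least 2-fold apart in col (0.623% of all genes were apart in either direction), 0 of 17 in lbe (0.53%), 3 of 20 in col + lbe (2.41%) and 1 of 17 in ap + eya (1.61%). LysX was among the higher genes, with log2 fold changes of 1.41 in col, 1.37 in col + lbe and 1.36 in ap + eya, and of 0.08 in lbe. Amy-p, an alpha-amylase gene, was at 3.63 TPM in col, 1.35 TPM in lbe, 8.67 TPM in col + lbe and 0.847 TPM in ap + eya, against 0.903 TPM in control embryos (log2 fold changes of 1.28, 0.31 and 2.34 in col, lbe and col + lbe). Amy-p was below 1 TPM in control embryos and so entered these comparisons through the misexpression alone. Jon65Aiii was the gene that was lower, at 11.3 TPM in col + lbe against 24.0 TPM in control embryos (-1.02), with 16.9 TPM in col, 18.3 in lbe and 12.8 in ap + eya. In the same 4 comparisons the cuticle protein genes at least 2-fold lower numbered 1 of 79 in col (0.337% of all genes were lower), 1 of 81 in lbe (0.275% of all), 42 of 79 in col + lbe (1.99%) and 34 of 79 in ap + eya (1.18%). These counts of digestive enzyme genes rest on low values. With a pseudocount of 5 in place of 1 they were 0 in col and 1 in col + lbe, and with the plain TPM ratio 9 in col + lbe and 5 in ap + eya.

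At AFT most of the Jon, Lys and Amy genes compared were at least 2-fold higher in each misexpression than in control embryos. Of the 11 trypsin genes a minority were (5, 2, 4 and 5 in col, lbe, col + lbe and ap + eya), and no maltase gene was. The summed TPM was 3.11, 2.34, 4.07 and 2.85 times the control sum in col, lbe, col + lbe and ap + eya. The 47 genes together made up 1.29%, 0.968%, 1.67% and 1.18% of the TPM column in col, lbe, col + lbe and ap + eya, against 0.411% in control embryos. Among the 500 most abundant genes of a column there were 14, 10, 16 and 14 of them in col, lbe, col + lbe and ap + eya, against 4 in control embryos.

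**Figure D1:**
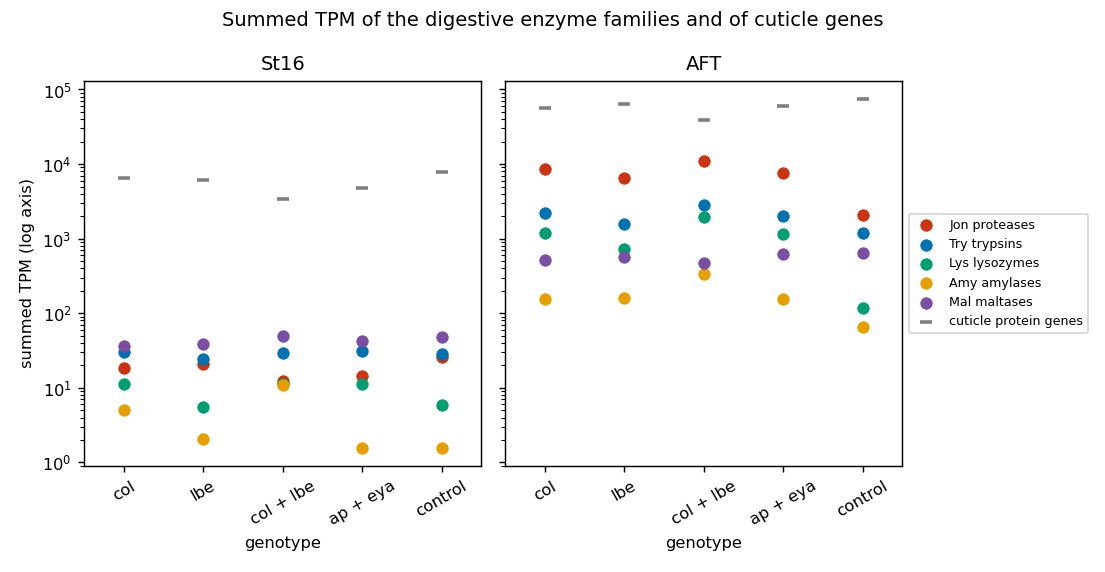
Summed TPM (log axis) of the 5 digestive enzyme families and of 122 cuticle protein genes in the 5 genotypes at St16 (left) and AFT (right), each point a sum of the authors' means. At AFT the Jon, Try, Lys and Amy sums are lowest in control embryos, the Mal sums lie between 471 and 641 TPM, and the cuticle sum is highest in control embryos; at St16 in col + lbe the Lys and Amy sums, 11.3 and 10.9 TPM, nearly coincide.

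Of the 47 genes, 44 reached 1 TPM in a genotype at AFT and were compared, and LysC, LysP and LysX did not. Amyrel passed this limit through the misexpressions alone, while the other 43 also reached it in control embryos. In col, 25 of the 44 were at least 2-fold higher than in control embryos, where 1.91% of all genes were. The number was 20 genes in lbe (1.48%), 27 genes in col + lbe (3.33%) and 25 genes in ap + eya (1.85%). At least 2-fold lower were 0 genes in col (2.37% of all genes), 0 genes in lbe (1.99%), 1 gene in col + lbe (4.02%) and 0 genes in ap + eya (2.6%). The median log2 fold change of the 44 genes was 1.41, 0.89, 1.82 and 1.23 in col, lbe, col + lbe and ap + eya, against -0.10, -0.13, 0.11 and -0.11 over all genes compared.

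The 4 counts depend on the control mean, to which each misexpression was set. When each misexpression was set against the median of the other 4 genotypes instead, 1, 0, 9 and 1 genes were at least 2-fold higher in col, lbe, col + lbe and ap + eya. This median is taken over the control and the other misexpressions, so it cannot show a difference from the control that the misexpressions share. Cuticle protein genes were lower in the comparisons with the control. Of 122 such genes, 36 of the 95 compared were at least 2-fold lower in col, 23 of 94 in lbe, 49 of 95 in col + lbe and 34 of 94 in ap + eya, and 3, 3, 3 and 2 were higher. Their TPM summed to 56002, 64565, 38814 and 59350.3 in col, lbe, col + lbe and ap + eya, against 75643 in control embryos. Their part in the result was not tested.

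**Figure D2:**
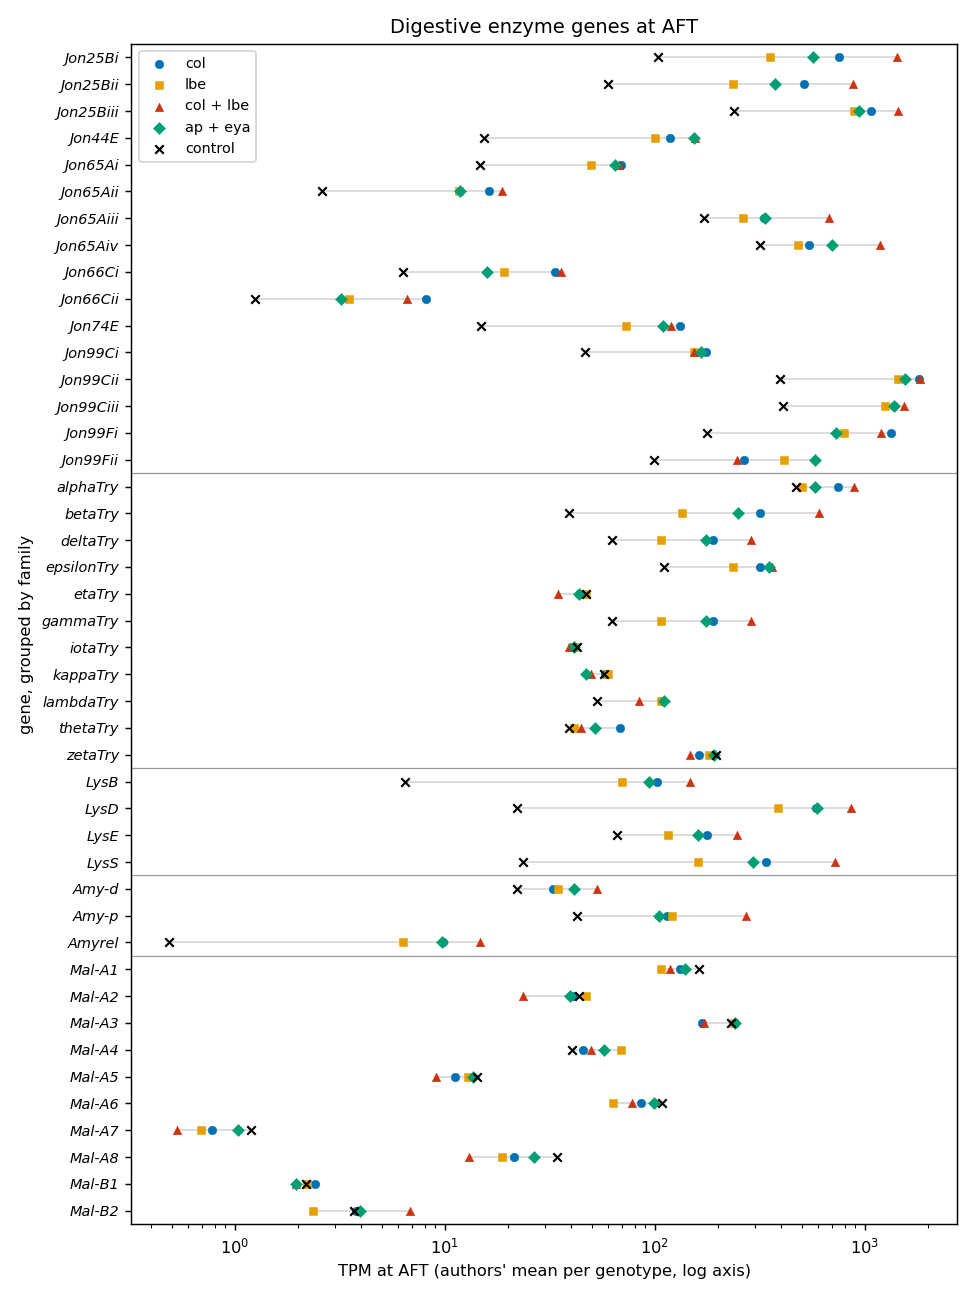
TPM at AFT (log axis, authors' mean per genotype) of the 44 digestive enzyme genes that reached 1 TPM, grouped by family, with 1 mark per genotype and a grey line over their range. The control mark is at the low end for the 16 Jon and 4 Lys genes, and among the other marks or above them for most maltase genes.

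The Jon genes encode serine proteases of the chymotrypsin type that cleave dietary protein in the gut lumen. They were the most abundant family at AFT, with sums of 8551 TPM in col, 6514 TPM in lbe, 10953 TPM in col + lbe and 7657 TPM in ap + eya, against 2067 TPM in control embryos. At least 2-fold higher were 14, 13, 16 and 14 of the 16 genes in col, lbe, col + lbe and ap + eya. Their lowest log2 fold changes were 0.77, 0.60, 1.29 and 0.91 in col, lbe, col + lbe and ap + eya, and their highest 3.08, 2.63, 3.86 and 3.24. At St16, 14 of the 16 stayed below 1 TPM in every genotype.

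The Jon99 genes lie in 2 groups on chromosome 3R, at 29922216 to 29926189 (Jon99Ciii, Jon99Cii and Jon99Ci) and at 30487016 to 30489895 (Jon99Fii and Jon99Fi). Jon99Cii (FBgn0003356), the most abundant digestive enzyme gene in each misexpression, was at 1815 TPM in col, 1435 TPM in lbe, 1828 TPM in col + lbe and 1554 TPM in ap + eya, against 392 TPM in control embryos. Its neighbour Jon99Ciii was at 1375, 1252, 1543 and 1373 TPM in col, lbe, col + lbe and ap + eya, against 406 TPM in control embryos. For both genes the 4 misexpressions lay close together and the control stood well below them, with a highest over lowest misexpression of 1.27 for Jon99Cii and 1.23 for Jon99Ciii. Jon99Ci, at lower levels, was at 175 TPM in col, 153 TPM in lbe, 153 TPM in col + lbe and 166 TPM in ap + eya, against 46.5 TPM in control embryos.

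Jon99Fi was at 1334 TPM in col, 792 TPM in lbe, 1199 TPM in col + lbe and 725 TPM in ap + eya, against 177 TPM in control embryos. Jon99Fii, next to it on the other strand, was at 265, 411, 245 and 576 TPM in col, lbe, col + lbe and ap + eya, against 99.4 TPM in control embryos. The order of the misexpressions thus differed between these neighbours: Jon99Fi was highest in col and Jon99Fii in ap + eya. Jon99Fii was the only one of 44 digestive enzyme genes at least 2-fold lower in col + lbe than in ap + eya (log2 fold change -1.23), where 1.1% of all genes were lower.

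The 3 Jon25B genes on chromosome 2L, from 4949941 to 4955144, spread widely between the misexpressions. Jon25Bi (FBgn0020906) was at 756 TPM in col, 353 TPM in lbe, 1422 TPM in col + lbe and 569 TPM in ap + eya, against 104 TPM in control embryos. Jon25Bii was at 510.1, 234, 881 and 372 TPM in col, lbe, col + lbe and ap + eya, against 59.6 TPM in control embryos. Jon25Bi and Jon25Bii followed the same order of genotypes, with col + lbe highest, and Jon25Bi was at 1.48 to 1.74 times the level of Jon25Bii in all 5. Jon25Biii was flatter among the misexpressions, at 1072 TPM in col, 885 TPM in lbe, 1430.3 TPM in col + lbe and 933 TPM in ap + eya, against 238 TPM in control embryos.

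On chromosome 3L the Jon65A genes, from 6039155 to 6054443, held the Jon genes that were detected at St16. Jon65Aiii was at 330.5 TPM in col, 262 TPM in lbe, 671 TPM in col + lbe and 336 TPM in ap + eya at AFT, against 172 TPM in control embryos. Jon65Aiv was at 543, 481, 1178 and 696 TPM in col, lbe, col + lbe and ap + eya, against 318 TPM in control embryos. In col and lbe these were the Jon genes with the smallest log2 fold changes, 0.94 and 0.77 in col for Jon65Aiii and Jon65Aiv, and 0.60 for both in lbe. Jon65Ai, which was at most at 0.0520 TPM at St16, was at 69.3 TPM in col, 49.4 TPM in lbe, 67.2 TPM in col + lbe and 64.5 TPM in ap + eya at AFT, against 14.7 TPM in control embryos. Jon65Aii stayed at or below 18.7 TPM, with 2.59 TPM in control embryos.

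The remaining Jon genes lie alone or as a pair. Jon44E on chromosome 2R was at 118 TPM in col, 100.05 TPM in lbe, 155 TPM in col + lbe and 153 TPM in ap + eya, against 15.3 TPM in control embryos. Jon74E on 3L was at 132 TPM in col, 72.5 TPM in lbe, 119.8 TPM in col + lbe and 109 TPM in ap + eya, against 14.8 TPM in control embryos. These 2 genes had log2 fold changes of 2.22 to 3.26 over the 4 comparisons. Jon66Ci on 3L was at 33.4 TPM in col, 19.0 TPM in lbe, 35.7 TPM in col + lbe and 15.9 TPM in ap + eya, against 6.33 TPM in control embryos, and its neighbour Jon66Cii stayed at or below 8.11 TPM, with 1.24 TPM in control embryos.

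The Try genes encode trypsins, which cleave proteins after basic residues. All 11 lie in a single stretch of chromosome 2R from 11336840 to 11357537 and have 1 exon each. The genes of this stretch differed from each other, and a role of position was not tested. Summed, they stood at 2241 TPM in col, 1565 TPM in lbe, 2827 TPM in col + lbe and 2012 TPM in ap + eya, against 1179.9 TPM in control embryos. At least 2-fold higher were 5, 2, 4 and 5 of the 11 genes in col, lbe, col + lbe and ap + eya.

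The trypsin gene with the largest fold change was betaTry (FBgn0010357), at 316 TPM in col, 134 TPM in lbe, 607 TPM in col + lbe and 249 TPM in ap + eya, against 38.8 TPM in control embryos (3.00, 1.76, 3.94 and 2.65). Beside it, epsilonTry was at 318, 237, 363 and 349.9 TPM in col, lbe, col + lbe and ap + eya, against 109.8 TPM in control embryos. These neighbours reached similar levels in col, and the control level of betaTry was the lower of the pair. The values of gammaTry and deltaTry were identical in every column of both tables, and identical to those of a further copy, CG30031, named here after its values were seen, so reads of these copies were shared out and the single values are uncertain. Each was listed at 190.0 TPM in col, 107 TPM in lbe, 287 TPM in col + lbe and 175 TPM in ap + eya, against 62.4 TPM in control embryos (1.59, 0.77, 2.18 and 1.48).

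The most abundant trypsin gene, alphaTry (FBgn0003863), lies on the other side of epsilonTry and was less than 2-fold higher in each misexpression, at 747 TPM in col, 503 TPM in lbe, 885 TPM in col + lbe and 577 TPM in ap + eya, against 472 TPM in control embryos (0.66, 0.09, 0.91 and 0.29). It was the most abundant digestive enzyme gene in control embryos, at rank 307 of all genes. Of the genes next to it, thetaTry was at 68.1 TPM in col, 41.1 TPM in lbe, 44.3 TPM in col + lbe and 52.0 TPM in ap + eya, against 39.1 TPM in control embryos.

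Farther along the stretch the trypsin genes showed almost the same level in the 5 genotypes. The gene etaTry was at 43.4 TPM in col, 47.2 TPM in lbe, 34.4 TPM in col + lbe and 43.6 TPM in ap + eya, against 46.9 TPM in control embryos. For zetaTry the values were 162, 182, 146 and 191 TPM in col, lbe, col + lbe and ap + eya, against 196 TPM in control embryos, and both genes were thus lowest in col + lbe. The values of kappaTry were 58.0 TPM in col, 59.6 TPM in lbe, 49.9 TPM in col + lbe and 46.9 TPM in ap + eya, against 57.2 TPM in control embryos.

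The 2 genes at the ends of the stretch differed from each other. At one end, iotaTry was at 40.3 TPM in col, 41.4 TPM in lbe, 38.9 TPM in col + lbe and 41.2 TPM in ap + eya, against 42.4 TPM in control embryos. At the other end, lambdaTry was at 108, 106, 84.0 and 111 TPM in col, lbe, col + lbe and ap + eya, against 53.2 TPM in control embryos, at about 2-fold in col, lbe and ap + eya (1.01, 0.99 and 1.05) and 0.65 in col + lbe. It was the trypsin gene of highest level at St16, at 13.2 to 17.9 TPM.

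**Figure D3:**
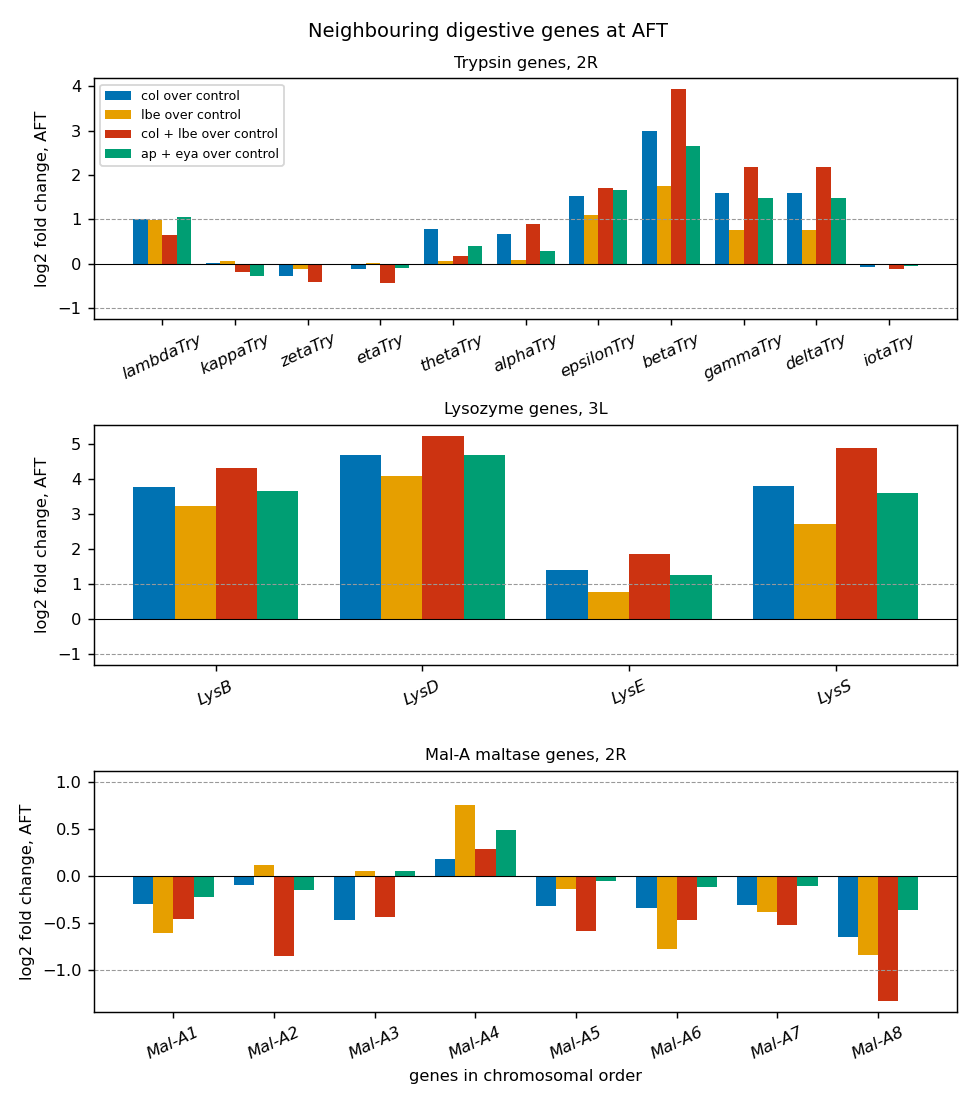
Log2 fold changes at AFT, each misexpression over control, for the trypsin, lysozyme and Mal-A maltase genes in chromosomal order, with dashed lines at 2-fold. In the trypsin stretch the tall bars belong to epsilonTry, betaTry, gammaTry and deltaTry, with betaTry reaching 3.94 in col + lbe, while zetaTry, etaTry and iotaTry lie near 0; the Mal-A bars lie between -1.33 and 0.76, on an axis of a smaller range.

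Lys genes encode lysozymes, which cleave the bacterial cell wall and in the fly gut are thought to help digest bacteria taken in with food. They lie on chromosome 3L from 1194739 to 1228238, with 1 exon each, and showed the largest ratios to the control of the 5 families. Their sum at AFT was 1205 TPM in col, 733 TPM in lbe, 1978 TPM in col + lbe and 1138 TPM in ap + eya, against 119 TPM in control embryos, which is 10.2, 6.17, 16.7 and 9.58 times the control sum. Of the 4 genes compared, 4, 3, 4 and 4 were at least 2-fold higher in col, lbe, col + lbe and ap + eya.

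LysD (FBgn0004427) had the largest fold changes of all the digestive enzyme genes. It was at 587 TPM in col, 387 TPM in lbe, 859 TPM in col + lbe and 589 TPM in ap + eya, against 22.0 TPM in control embryos, with log2 fold changes of 4.68, 4.08, 5.23 and 4.68. LysS was at 338, 161, 724 and 294 TPM in col, lbe, col + lbe and ap + eya, against 23.4 TPM in control embryos (3.79, 2.73, 4.89 and 3.59), and differed more than LysD among the misexpressions. LysB was at 102 TPM in col, 69.6 TPM in lbe, 148 TPM in col + lbe and 93.5 TPM in ap + eya, against 6.47 TPM in control embryos (3.78, 3.24, 4.31 and 3.66).

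LysE stood apart from its neighbours by a higher control level. It was at 178 TPM in col, 115 TPM in lbe, 246 TPM in col + lbe and 161 TPM in ap + eya, against 66.3 TPM in control embryos (1.41, 0.79, 1.87 and 1.26). The ratio of LysE to LysB was 1.74, 1.65, 1.66 and 1.72 in col, lbe, col + lbe and ap + eya, against 10.2 in control embryos. LysB, LysD and LysE are near-identical copies among which reads can be shared out unequally, so their single values are uncertain, and LysB to LysS lie within the bounds of the gene mwh, so their reads are uncertain for this reason too. LysP, known from salivary glands of adults, was below 1 TPM in all 10 columns.

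Amy genes encode alpha-amylase, which splits starch to maltose and longer sugars. Amy-p (FBgn0000079) and Amy-d lie back to back on chromosome 2R from 17118636 to 17126369, and are near-identical copies. Amy-p was at 114 TPM in col, 120.0 TPM in lbe, 271 TPM in col + lbe and 105 TPM in ap + eya, against 42.6 TPM in control embryos (1.40, 1.47, 2.64 and 1.28). Amy-d was at 32.8, 34.6, 52.9 and 41.1 TPM in col, lbe, col + lbe and ap + eya, against 22.1 TPM in control embryos (0.55, 0.62, 1.22 and 0.87). Both were highest in col + lbe. The ratio of Amy-p to Amy-d was 3.48, 3.47, 5.13 and 2.56 in col, lbe, col + lbe and ap + eya, against 1.92 in control embryos. Reads can be shared out unequally between such copies, so the single values of Amy-p and Amy-d are uncertain. Amyrel, a diverged relative of the amylases, was at 9.76 TPM in col, 6.29 TPM in lbe, 14.6 TPM in col + lbe and 9.65 TPM in ap + eya, against 0.485 TPM in control embryos.

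Mal genes encode maltases, which split maltose to glucose and so act on the product of amylase. Unlike Amy-p and Amyrel, no maltase gene was at least 2-fold higher in any of the 4 comparisons with the control at AFT. Their sum was 510.2 TPM in col, 561 TPM in lbe, 471 TPM in col + lbe and 621 TPM in ap + eya, against 641 TPM in control embryos, 0.797, 0.876, 0.735 and 0.970 times the control sum. Each of the 10 genes has 2 or more exons. They were more abundant at St16 than any other of the 5 families, with sums of 36.7 to 50.0 TPM.

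The 8 Mal-A genes lie together on chromosome 2R from 8449664 to 8473961. Mal-A3 (FBgn0002571), the most abundant, was at 167 TPM in col, 239 TPM in lbe, 171 TPM in col + lbe and 239.8 TPM in ap + eya, against 231 TPM in control embryos. Mal-A1 was at 132, 107, 118 and 139 TPM in col, lbe, col + lbe and ap + eya, against 163 TPM in control embryos. Mal-A6 was at 85.5 TPM in col, 62.8 TPM in lbe, 77.6 TPM in col + lbe and 99.2 TPM in ap + eya, against 108 TPM in control embryos. Mal-A1 and Mal-A6 were thus highest in the control, while Mal-A3 was as high in lbe and ap + eya.

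Mal-A4 went the other way, at 45.7 TPM in col, 68.7 TPM in lbe, 49.3 TPM in col + lbe and 57.1 TPM in ap + eya, against 40.2 TPM in control embryos. Mal-A2 was at 40.8, 47.1, 23.6 and 39.2 TPM in col, lbe, col + lbe and ap + eya, against 43.5 TPM in control embryos. The single maltase gene at least 2-fold lower in a comparison was Mal-A8, in col + lbe (-1.33): it was at 21.4 TPM in col, 18.6 TPM in lbe, 13.0 TPM in col + lbe and 26.5 TPM in ap + eya, against 34.2 TPM in control embryos. Mal-A5, Mal-A7, Mal-B1 and Mal-B2 stayed at or below 14.2 TPM at AFT, with log2 fold changes between -0.59 and 0.74. Mal-B1 and Mal-B2 lie within the gene Pde1c on its other strand, and their values are uncertain where strand was not used.

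The genes low at St16 and those detected there differed in their values at AFT, a division made after the values were seen. Of the 27 genes below 1 TPM in all genotypes at St16, 25 were compared at AFT, and 21, 17, 21 and 20 were at least 2-fold higher in col, lbe, col + lbe and ap + eya. Their median log2 fold changes were 2.16, 1.70, 2.18 and 1.84. Of the 20 genes at 1 TPM or more, 19 were compared, and 4, 3, 6 and 5 were at least 2-fold higher in col, lbe, col + lbe and ap + eya, with medians of 0.03, 0.06, -0.10 and 0.06. Over all genes the same division gave 14.3%, 12.1%, 19.7% and 12.6% at least 2-fold higher below 1 TPM at St16, and 0.909%, 0.627%, 1.96% and 0.974% at 1 TPM or more. The division largely follows the families, since 14 of the 27 low genes are Jon genes and 14 of the 20 others are trypsin or maltase genes. Of the trypsin genes, 3 of 4 low ones and 2 of 7 others were at least 2-fold higher in col, and 1 of 4 and 1 of 7 in lbe. In col + lbe they were 3 of 4 and 1 of 7, and in ap + eya 3 of 4 and 2 of 7. The low trypsin genes include gammaTry and deltaTry, whose values are identical. Of the maltase genes 0 of 3 and 0 of 7 were at least 2-fold higher in any misexpression. There were exceptions on both sides. LysS, betaTry and Amy-p reached 1.43, 1.84 and 8.67 TPM at St16 and were among the genes of large fold change at AFT. Jon65Aiii, Jon65Aiv and Amy-d reached 24.0, 1.08 and 2.19 TPM at St16 and were at least 2-fold higher in col + lbe (1.96, 1.89 and 1.22). With 17.9 TPM at St16, lambdaTry was at least 2-fold higher in col and ap + eya (1.01 and 1.05). Below 1 TPM at St16, thetaTry was less than 2-fold higher in each misexpression (0.78, 0.07, 0.18 and 0.40). Mal-A4, Mal-A7 and Mal-A8 were also below 1 TPM at St16 and were less than 2-fold higher or were lower.

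**Figure D4:**
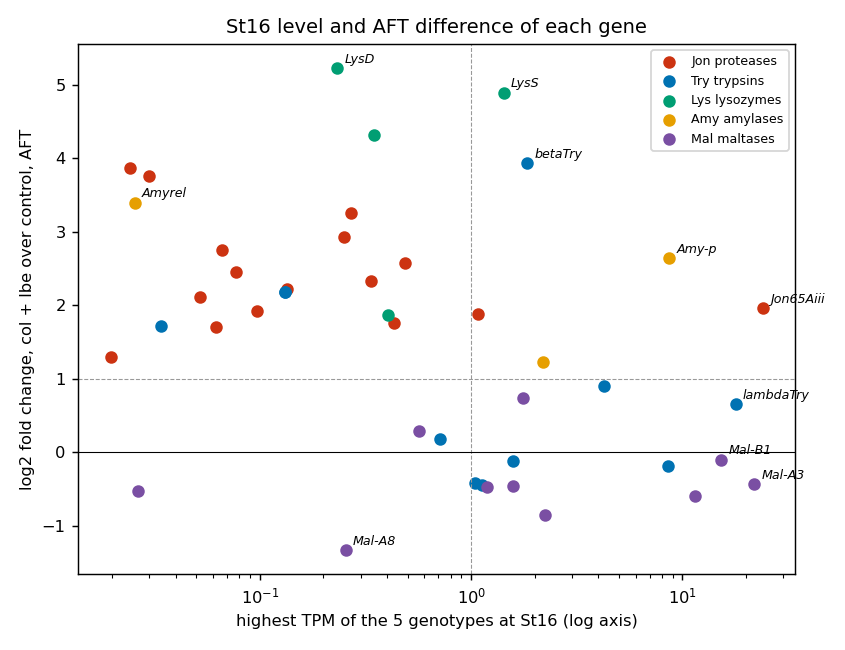
Highest TPM of the 5 genotypes at St16 (log axis) against the log2 fold change of col + lbe over control at AFT for 44 digestive enzyme genes, coloured by family, with dashed lines at 1 TPM and at 2-fold. Most points left of 1 TPM lie above the 2-fold line, with LysD at 5.23. Mal-A8, at -1.33, Mal-A4, Mal-A7 and thetaTry are exceptions. On the right LysS, betaTry, Amy-p, Jon65Aiii, Jon65Aiv and Amy-d lie above this line.

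Comparisons among the misexpressions do not use the control. Col + lbe was the genotype of highest TPM at AFT for 23 of 44 digestive enzyme genes (52.3%), and for 50.5% of all genes at 1 TPM or more, so this share is near the background. Against ap + eya, 6 of 44 genes were at least 2-fold higher in col + lbe, where 2.3% of all genes were, namely Amy-p, Jon25Bi, LysS, betaTry, Jon25Bii and Jon66Ci, with log2 fold changes of 1.36 down to 1.12. Against col, 4 of 43 were higher in col + lbe (1.7% of all genes), namely Amy-p, Jon65Aiv, LysS and Jon65Aiii, with 1.24 to 1.02. Against lbe, 14 of 43 were higher (2.8%), led by betaTry (2.17), LysS (2.16), Jon25Bi (2.01) and Jon25Bii (1.91). None was at least 2-fold lower over col or over lbe, where 0.839% and 1.12% of all genes were. These 3 comparisons share the col + lbe mean. The median log2 fold change of the digestive enzyme genes was 0.20 over ap + eya, 0.11 over col and 0.61 over lbe, and that of all genes 0.20, 0.19 and 0.21. At 3-fold in place of 2-fold the counts were 0, 0 and 4, and the count over col was 1 once the columns were rescaled by their median ratio.

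Other genes of the gut were counted in the same way. Of all genes, 1.91%, 1.48%, 3.33% and 1.85% were at least 2-fold higher in col, lbe, col + lbe and ap + eya. At least 2-fold lower were 2.37%, 1.99%, 4.02% and 2.6% in the same order. These shares also belong to the counts of the gut lists that follow. Of 26 further digestive enzyme genes compared, 7, 2, 8 and 4 were at least 2-fold higher in col, lbe, col + lbe and ap + eya than in control embryos, and 0, 1, 3 and 2 were lower, with medians of 0.39, 0.30, 0.37 and 0.24. The serine protease gene yip7 was at 383 TPM in col, 348 TPM in lbe, 674 TPM in col + lbe and 257 TPM in ap + eya, against 235 TPM in control embryos. Try29F, a trypsin gene outside the stretch on 2R, was at 242, 253, 91.8 and 211 TPM in col, lbe, col + lbe and ap + eya, against 451 TPM in control embryos, and so was highest in the control.

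Among 5 genes of the peritrophic matrix, the lining of the gut lumen, 2, 2, 2 and 1 were at least 2-fold higher in col, lbe, col + lbe and ap + eya, and 1 was lower in each comparison, with medians of -0.12, 0.18, 0.04 and -0.22. Peritrophin-15a was at 213 TPM in col, 186 TPM in lbe, 312 TPM in col + lbe and 178 TPM in ap + eya, against 71.6 TPM in control embryos, and was at or below 0.147 TPM at St16. Peritrophin-A was at 57.5, 62.2, 50.8 and 55.8 TPM in col, lbe, col + lbe and ap + eya, against 85.3 TPM in control embryos. Crys, the gene that was lower and named after its values were seen, was at 6.62, 4.89, 4.36 and 3.36 TPM in the same order, against 14.5 TPM in control embryos. Of 4 genes for gut amidases, which cut bacterial peptidoglycan, 3 were at least 2-fold higher in col and 2 in each of the other misexpressions. At least 2-fold lower were 0 in each comparison, and the medians were 1.49, 1.23, 1.10 and 0.92. PGRP-LB went the other way, at 58.4, 68.4, 60.1 and 70.5 TPM in col, lbe, col + lbe and ap + eya, against 89.7 TPM in control embryos. PGRP-SC2 was at 103, 84.8, 128 and 37.2 TPM in col, lbe, col + lbe and ap + eya, against 16.3 TPM in control embryos.

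Genes that mark the gut epithelium itself had negative medians. Of 6 compared, 0 were at least 2-fold apart in any of the 4 comparisons, and the median log2 fold changes were -0.40, -0.41, -0.43 and -0.39 in col, lbe, col + lbe and ap + eya. The membrane gene mex1 was at 131 TPM in col, 104 TPM in lbe, 101 TPM in col + lbe and 127 TPM in ap + eya, against 96.5 TPM in control embryos, and Tsp2A at 194, 205, 185 and 200.0 TPM in col, lbe, col + lbe and ap + eya, against 293 TPM in control embryos. Of 10 regulators of endoderm and midgut, 0 were 2-fold apart in any comparison, and GATAe, a GATA factor of the midgut, was at 14.0, 13.7, 15.4 and 12.9 TPM in col, lbe, col + lbe and ap + eya, against 20.5 TPM in control embryos. Set relative to the median of the gut epithelium genes, an alternative chosen after the data were seen, 29, 29, 30 and 28 digestive enzyme genes were at least 2-fold higher in col, lbe, col + lbe and ap + eya. As these medians are negative, this setting raises the fold change of every gene. The share of all genes at least 2-fold higher under it was not computed.

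**Figure D5:**
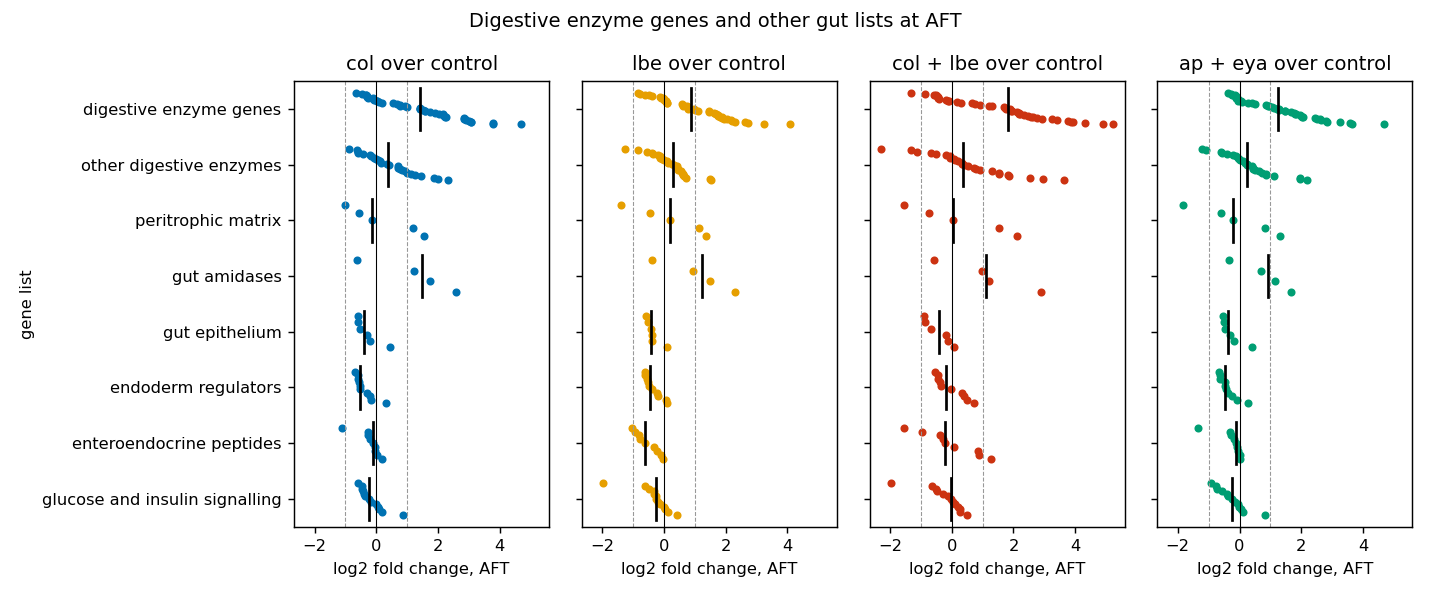
Log2 fold changes at AFT over control for the digestive enzyme genes and 7 further gene lists, with 1 panel per misexpression, 1 point per gene, a black bar at each median and dashed lines at 2-fold. The digestive enzyme genes reach farthest to the right in each panel, up to 5.23 in col + lbe, while the medians of gut epithelium genes lie between -0.43 and -0.39.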

How the data were processed

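The deposited values are TPM per gene, which the authors gave as 1 column per genotype in 1 table per stage. Per the submitters' processing notes, the tool was kallisto 0.43.1 and the build BDGP6. The step between transcripts and genes, and any use of strand, are not given in the sources used here. Per the labels' protocols, 30 to 50 M reads were obtained per sample, but a TPM value holds no read number, and its own depth is unknown. That the columns are means of 3 was checked on values of 10 to 100 TPM. Tripled, 56.2% of these at St16 and 54.5% of these at AFT had a whole 4th decimal to within 0.02, while other factors of 1 to 5 gave shares of 19.9% to 28.0%.

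Fold changes were computed over whole tables as differences of log2(TPM + 1), in which a gene entered at 1 TPM in either group, and counted at 2-fold. The computation was checked on simulated data. Positions and exons come from BDGP6.54. Digestive enzyme genes that reached 20 TPM in a column have their values printed. So do those among the 4 of highest mean at AFT in their family, and the driven genes. Up to 4 genes of highest mean TPM per other list could be named, and only some of these have their values printed. The members follow from their symbols, but this family and the gene lists were taken up with earlier results of these data known.

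Alternatives changed the pseudocount (0.1 or 5), the filter (none or 5 TPM), the scaling (median ratio or quantiles) and the limit (3-fold). Others used the plain ratio, a median over the other 4 groups in place of the control, copies summed by cluster and, added later, values relative to gut epithelium genes. Software was Python 3.11.15, pandas 2.3.3, numpy 2.4.6 and matplotlib 3.10.9.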

Additional observations from a re-analysis of the deposited data

How the results depend on the processing

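Over 16 counts of digestive enzyme genes, 117 of 156 alternative values lay within 1.5 times the reported count and 39 did not. At St16 the counts against control were small and moved most. In col (2) they were 0 with a pseudocount of 5, 1 with a filter of 5 TPM, 0 at 3-fold, 1 against the median of the other 4 groups and 1 with copies summed by cluster. In lbe (0) they were 1 with the plain ratio and 1 against that median. In col + lbe (3) they were 9 with a pseudocount of 0.1, 1 with one of 5, 9 with the plain ratio, 1 at 3-fold and 1 against that median. In ap + eya (1) they were 3 with a pseudocount of 0.1, 0 with one of 5, 5 with the plain ratio, 0 at 3-fold, 0 against that median and 0 with copies summed.

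At AFT, against the median of the other 4 groups, 1, 0, 9 and 1 genes were higher in col, lbe, col + lbe and ap + eya, and with copies summed 9, 9, 11 and 10 of 13 clusters were. Between stages 12 of 13 clusters were higher in each misexpression and 11 of 12 in the control. For col + lbe, 3-fold gave 0 over ap + eya, 0 over col and 4 over lbe, copies summed gave 2, 2 and 5, and median-ratio rescaling gave 1 over col and 9 over lbe. The clusters are fewer than the genes by construction, and the other causes were not tested. Median-ratio rescaling shifted the log2 TPM at AFT by 0.11, 0.14, -0.12 and 0.12 in col, lbe, col + lbe and ap + eya. Differences of log2(TPM + 1) moved by less than this at low TPM.

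Among 38 named genes, 1395 of 1520 values kept their direction and side of the limit, 98 moved and 27 reversed, the last all against the median of the other 4 groups. That median is taken over the control and the other misexpressions. A gene lowest in control embryos therefore had to turn negative in its lowest misexpression, which was often lbe, and such a reversal does not concern its difference from the control. Some reversals were in a misexpression that was not the lowest of the gene, and these did not have to occur. In col the reversed genes were Jon44E (-0.10) and Jon99Fii (-0.31), and col was the lowest misexpression of neither. In lbe they were Amyrel (-0.55), Jon25Bi (-0.91), Jon25Bii (-0.91), Jon25Biii (-0.18), Jon44E (-0.43), Jon65Ai (-0.41), Jon66Ci (-0.36), Jon74E (-0.65), Jon99Ci (-0.059), Jon99Cii (-0.23), Jon99Ciii (-0.13), Jon99Fi (-0.28), LysB (-0.48), LysD (-0.60), LysS (-0.97), betaTry (-1.07) and epsilonTry (-0.50). In col + lbe they were Jon99Ci (-0.058) and Jon99Fii (-0.46), and in ap + eya Amy-p (-0.16), Jon25Bii (-0.0021), Jon25Biii (-0.069), Jon66Ci (-0.69), Jon99Cii (-0.064) and Jon99Fi (-0.46).

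No paired analysis was possible because the columns are means that carry no replicate number, and for the same reason no replicate was left out. The median of the other 4 groups was applied to comparisons with the control.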

Other observations

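Gene groups next to digestion were counted in the same way at AFT, where the shares of all genes at least 2-fold higher were 1.91%, 1.48%, 3.33% and 1.85% in col, lbe, col + lbe and ap + eya, and at least 2-fold lower 2.37%, 1.99%, 4.02% and 2.6%. Of 9 enteroendocrine peptide genes, which encode hormones of the gut and brain, 0, 0, 1 and 0 were at least 2-fold higher in col, lbe, col + lbe and ap + eya, and 1 was lower in each. The lower gene was Orcokinin in col and ap + eya, and NPF, named after its values were seen, in lbe and col + lbe. Orcokinin was at 9.01 TPM in col, 11.6 TPM in lbe, 10.3 TPM in col + lbe and 7.63 TPM in ap + eya, against 20.8 TPM in control embryos. NPF was at 10.5, 5.78, 3.73 and 10.4 TPM in the same order, against 12.8 TPM in control embryos. Dh31, AstA and AstC were less than 2-fold apart in each comparison. Of 13 genes of glucose and insulin signalling, 0 were higher in any comparison, and 0, 1, 1 and 0 were lower in col, lbe, col + lbe and ap + eya. Mondo, a glucose-responsive transcription factor gene, was at 75.2 TPM in col, 71.7 TPM in lbe, 63.5 TPM in col + lbe and 67.1 TPM in ap + eya, against 101 TPM in control embryos. Of the Malpighian tubule genes compared, 0 were 2-fold apart. Of 6 salivary gland genes, 1, 0, 2 and 0 were higher in col, lbe, col + lbe and ap + eya, and 1, 0, 1 and 0 were lower. The salivary gland gene PH4alphaSG2 was at 4.31 TPM in col, 1.84 TPM in lbe, 6.49 TPM in col + lbe and 2.93 TPM in ap + eya, against 1.47 TPM in control embryos.

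Some genes of the list of further digestive enzymes, chosen after their values were seen, had large differences at AFT. The lipase gene Lip3 was at 13.0 TPM in col, 6.73 TPM in lbe, 20.3 TPM in col + lbe and 11.7 TPM in ap + eya, against 1.76 TPM in control embryos. LManVI, a lysosomal alpha-mannosidase gene, was at 267, 191, 192 and 258 TPM in col, lbe, col + lbe and ap + eya, against 66.3 TPM in control embryos. Bace, an aspartic protease gene, went the other way, at 119.7, 139.9, 72.7 and 78.7 TPM in col, lbe, col + lbe and ap + eya, against 183 TPM in control embryos.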
